A study of Mus musculus with 8 samples.

Results

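Transcripts of 40 genes of the ATF4 programme and of the enzymes it feeds were examined in mouse brown adipose tissue, among 41388 genes counted in each library. The genes were taken by symbol: 13 stress regulators and stress targets, 8 enzymes of serine, transsulfuration, phosphoenolpyruvate and proline metabolism, 7 folate enzymes and 12 cytosolic aminoacyl-tRNA synthetases. Each symbol matched 1 row in all 8 count tables, and all 40 genes had enough counts to be tested. RNA came from C57BL/6J mice kept at room temperature on regular chow. The 4 ANKO mice lack Nampt in adipocytes, through a Cre recombinase under the adiponectin promoter acting on floxed Nampt alleles. The 4 control mice (WT) are labelled wild type (flox/flox), so they also carry the floxed alleles. Adiponectin-Cre acts in adipocytes of all depots, and the other cell types of the tissue are not its target. Age is not given in the sources used here.

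ATF4 is a basic leucine zipper transcription factor whose translation rises when a kinase phosphorylates the initiation factor eIF2α, in response to amino acid shortage, protein misfolding, viral RNA or mitochondrial dysfunction. Because ATF4 is controlled at translation, the level of its own mRNA need not follow its activity. It binds composite C/EBP-ATF elements, many with the core TGATGNAA, and raises genes for amino acid synthesis and uptake, mitochondrial folate metabolism and tRNA charging. Folate enzymes run as parallel chains in mitochondria and in the cytosol, which make and use one-carbon units from serine for purines, thymidylate and methylation. In brown fat, mitochondrial stress is known to raise ATF4 targets, and some of them encode circulating factors.

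The core TGATGNAA (N is any base, both strands) was searched in the RefSeq promoter windows of GRCm38.p6, which run from 250 bases before to 50 bases after a start site. The table held 33 of the 40 genes, without Eif4ebp1, Cth, Aldh1l2, Cars, Lars, Nars and Wars. Of the 33, 13 had the core (39.4%), against 4.51% of the 27025 genes in the table. The 13 were Aars, Asns, Atf3, Chac1, Gars, Iars, Nupr1, Pck2, Pycr1, Tars, Trib3, Vldlr and Yars. Many of them are on the list because ATF4 is known to bind there, so the share describes the list. The palindromic cAMP response element TGACGTCA was in 0 of the 33 and in 2.03% of all genes. The windows of the 4 genes with the core and the largest change between the genotypes, in either direction, are shown. Of these genes 3 were higher in ANKO and 1 lower. Capitals mark the core or its reverse complement, and each window of 300 bases is written 5′ to 3′ on the strand of the gene. The window shown for Vldlr is the second of 2 in the table, and the first, further upstream, does not hold the core.
Chac1 (chr2:119350992-119351291, plus strand): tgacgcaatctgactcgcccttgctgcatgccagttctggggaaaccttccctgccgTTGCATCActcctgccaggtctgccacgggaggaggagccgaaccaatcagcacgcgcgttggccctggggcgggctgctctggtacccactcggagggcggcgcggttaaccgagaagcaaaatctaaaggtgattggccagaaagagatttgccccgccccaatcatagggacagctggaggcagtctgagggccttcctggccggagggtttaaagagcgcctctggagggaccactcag
Pycr1 (chr11:120643699-120643998, minus strand): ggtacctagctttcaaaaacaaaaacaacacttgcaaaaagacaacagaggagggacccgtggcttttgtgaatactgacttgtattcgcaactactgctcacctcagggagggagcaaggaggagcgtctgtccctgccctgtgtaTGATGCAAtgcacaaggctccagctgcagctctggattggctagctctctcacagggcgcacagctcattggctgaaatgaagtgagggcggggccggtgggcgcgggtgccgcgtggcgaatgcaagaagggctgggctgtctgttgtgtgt
Trib3 (chr2:152344011-152344310, minus strand): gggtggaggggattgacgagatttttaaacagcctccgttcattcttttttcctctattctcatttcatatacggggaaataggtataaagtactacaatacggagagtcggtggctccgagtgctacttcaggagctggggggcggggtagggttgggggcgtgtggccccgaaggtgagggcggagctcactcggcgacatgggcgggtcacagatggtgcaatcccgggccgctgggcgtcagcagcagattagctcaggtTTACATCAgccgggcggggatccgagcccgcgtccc
Vldlr (chr19:27216770-27217069, plus strand): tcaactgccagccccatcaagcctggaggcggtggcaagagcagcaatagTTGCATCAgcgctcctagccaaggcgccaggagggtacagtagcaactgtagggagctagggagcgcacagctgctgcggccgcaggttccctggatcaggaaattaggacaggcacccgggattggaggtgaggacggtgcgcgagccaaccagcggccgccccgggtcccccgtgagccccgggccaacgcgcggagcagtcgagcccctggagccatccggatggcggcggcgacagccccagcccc
Genes with the core differed in both directions: of the 9 genes higher in ANKO that the table holds, 4 had it, of the 11 lower genes 2 had it, and of the 13 that were not called 7 had it.

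Gene counts per library were 21771276 to 49697156 in WT and 5738067 to 26426476 in ANKO. Levels are counts scaled to a library of 1000000 (CPM), with TMM-adjusted library sizes. On this scale 3 counts were 0.0683 CPM in the deepest library and 0.437 CPM in the shallowest, ANKO4, counting error only. Nampt, the targeted gene, stood at 484 to 571 CPM in the WT libraries and at 67.4 to 77.6 CPM in the ANKO libraries. For the marker counts that follow, 30.6% of all genes tested were higher and 27.6% lower, and 62.3% were lower from 100 CPM in WT. Brown adipocyte markers (8 of 8 lower in ANKO) summed to 13687 to 21626 CPM in WT and 4769 to 8756 CPM in ANKO. With the muscle covariate described below, 1 of the 8, Prdm16, was still called lower. The median log2 fold change of the 8 was -1.16 with it and -1.30 without. Markers of other cells moved with genotype. Skeletal muscle markers (9 of 12 higher) summed to 33.0 to 2859 CPM in WT and 9811 to 15013 CPM in ANKO. WT1 and WT2 held 1005 and 2859 CPM of them, and WT3 and WT4 held 121 and 33.0 CPM. The same WT libraries also differed in the brown adipocyte sum, at 13687 and 15203 CPM against 21626 and 20789 CPM. Ucp1 was at 3369 and 4170 CPM in WT1 and WT2 against 8829 and 7430 CPM in WT3 and WT4. Cidea, Prdm16 and Plin1 did not follow this order. Macrophage markers (10 of 10 higher) ran from 142 to 185 and from 1138 to 1572 CPM, fibroblast markers (5 of 5 higher) from 720 to 1066 and from 3167 to 5986 CPM, and proliferation genes (5 of 5 higher) from 6.35 to 18.4 and from 53.2 to 91.6 CPM. Lymphocyte markers (9 of 10 higher) ran from 5.10 to 6.58 and from 30.7 to 50.9 CPM. Hepatocyte markers (1 of 2 tested higher, 3 too low to test) overlapped, at 3.51 to 14.2 and 9.18 to 34.3 CPM, as did Schwann cell markers (2 of 5 higher), at 83.3 to 97.1 and 94.3 to 144 CPM. Endothelial markers (3 of 5 lower) ran from 789 to 900 and from 560 to 631 CPM. None of these markers was at 0 in all libraries. In bulk tissue, fewer cells of a type and less RNA per cell cannot be told apart, and the part of these cells in the results below was not tested beyond the fits named with them.

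The 40 genes did not move as one block in ANKO brown fat. Glutathione-degrading Chac1, the mitochondrial folate enzyme Mthfd2 and the serine enzyme Psat1 rose most, while Sesn2, Asns, Vldlr and the cytosolic folate enzymes fell. Most of the listed cytosolic tRNA synthetases were not called. Of the 40 genes 11 were higher and 13 lower in ANKO (edgeR adjusted p under 0.05), and 16 were not called. Over all 16705 genes tested 58.2% were called, 30.6% higher and 27.6% lower, so the shares of the list, 27.5% and 32.5%, lie near the background. With library totals alone in place of TMM scaling, 5897 of all genes were higher and 2940 lower, against 5111 and 4615. The median log2 fold change of the 40 genes was -0.12, against -0.01 over all genes tested, and it turned to 0.06 with library totals alone, a scaling that moved the median of all genes by 0.18. It was 0.13 with the muscle covariate described below and 0.03 without WT3 and WT4. The range was wide, from -1.58 for Sesn2 to 3.33 for Chac1. The libraries did not overlap in 21 of the 40 genes, with ANKO above WT in 10 and below in 11, against 28.7% and 26.4% of all genes tested, 55% in all.

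**Figure D1:**
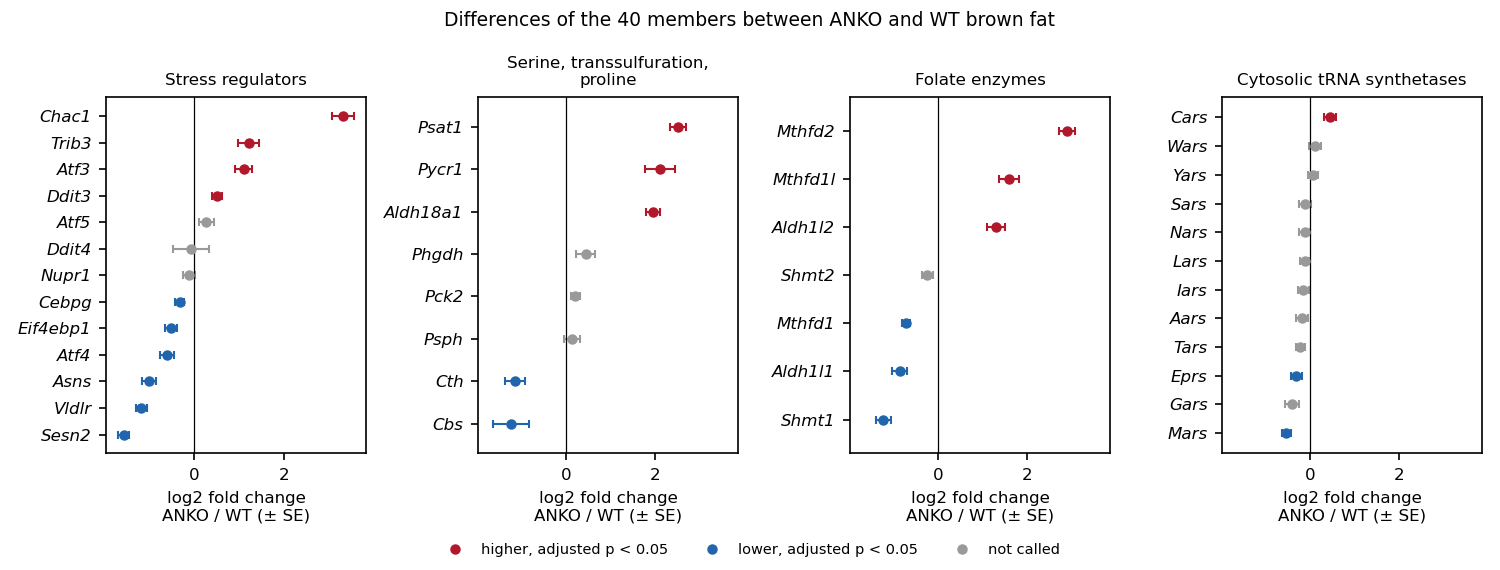
Log2 fold change of each of the 40 genes between ANKO and WT (points, edgeR) with its standard error (bars), by role. Red and blue points passed an adjusted p of 0.05, 11 higher and 13 lower, and Chac1, Mthfd2 and Psat1 lie farthest to the right.

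With the mean muscle marker level as a covariate, 9 of the 11 higher genes kept their call and 6 of the 13 lower ones did. Pycr1 and Aldh1l2 were no longer called higher. Of the lower genes, Atf4, Cebpg, Eif4ebp1, Cth, Cbs, Eprs and Mars lost their call. Their log2 fold changes with the covariate ranged from 0.04 for Eprs, -0.04 for Cebpg and -0.10 for Atf4 to -1.07 for Cth, which was -1.15 without it. Over all genes that covariate left 2333 higher and 1722 lower and raised the median standard error from 0.18 to 0.29. It had r = 0.839 with genotype, at 8.72 to 9.28 log2 CPM in ANKO and 0.887 to 6.82 in WT. The groups did not overlap in it, and it varied mainly among the WT libraries. A call kept or lost with the covariate, here and below, therefore does not separate muscle RNA from genotype. Without WT3 and WT4, the WT libraries with the least muscle RNA, all 11 higher genes and 10 of the 13 lower ones kept their call. Cebpg, Cbs and Eprs lost it. WT3 and WT4 also had the highest brown adipocyte marker sums, so neither fit can separate muscle RNA from that difference among the WT libraries.

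Among the stress regulators, Chac1, Trib3, Atf3 and Ddit3 rose, and Sesn2, Vldlr, Asns, Atf4, Eif4ebp1 and Cebpg fell. Of the 13 genes 4 were higher (30.8%), 6 lower (46.2%) and 3 not called, against 30.6% higher and 27.6% lower over all genes tested. Chac1 (ENSMUSG00000027313), a glutathione-specific γ-glutamylcyclotransferase that degrades glutathione, was at 1.24, 1.09, 0.671 and 0.683 CPM in WT1 to WT4 and at 11.7, 7.72, 7.76 and 8.74 CPM in ANKO1 to ANKO4. Every ANKO library lay far above every WT library, from 22 to 30 reads per WT library and 60 to 305 per ANKO library. The change was 10.1-fold (log2 fold change 3.33 ± 0.26 SE, edgeR adjusted p = 3.76e-06), and 2.66 ± 0.43 on the log2 scale with the muscle covariate. Chac1 lies on chromosome 2 from 119351229 to 119354381, plus strand, GRCm38.

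Trib3, a pseudokinase that binds and restrains ATF4 and Akt, was at 8.61, 3.73, 5.34 and 6.76 CPM in WT and at 16.95, 13.6, 12.1 and 14.1 CPM in ANKO. The groups did not overlap and the change was 2.34-fold (log2 1.23 ± 0.23 SE, edgeR adjusted p = 0.00133). Atf3, a stress-induced repressor of the same leucine zipper family, was at 21.3, 21.0, 14.6 and 29.1 CPM in WT and at 43.8, 40.3, 48.7 and 53.5 CPM in ANKO. It rose 2.16-fold (log2 1.11 ± 0.19 SE, edgeR adjusted p = 0.000616). Ddit3, which encodes the pro-apoptotic factor CHOP, was at 22.6, 22.6, 27.5 and 24.3 CPM in WT and at 36.3, 39.6, 31.9 and 30.7 CPM in ANKO. Its rise of 1.43-fold (log2 0.52 ± 0.11 SE, edgeR adjusted p = 0.00267) was small but without overlap between the groups. All 4 rises kept their call with the muscle covariate, where the log2 fold changes of Trib3, Atf3 and Ddit3 were 1.52, 1.29 and 0.72. Ddit3 shares 68 exonic bases with Mars on the opposite strand, and the strand setting of the counting is not given in the sources used here.

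Sesn2, a leucine sensor that inhibits mTORC1, had the largest fall of the list. It was at 54.8, 57.9, 70.9 and 56.3 CPM in WT and at 17.8, 17.7, 23.1 and 22.1 CPM in ANKO, with no overlap. It fell 2.98-fold (log2 fold change -1.58 ± 0.13 SE, edgeR adjusted p = 5.07e-06). Asns, which makes asparagine and is one of the classic ATF4 targets, was at 72.7, 77.8, 86.1 and 81.8 CPM in WT and at 46.6, 46.4, 36.6 and 27.2 CPM in ANKO. It fell 2.02-fold (log2 -1.02 ± 0.16 SE, edgeR adjusted p = 0.000352), and among the ANKO libraries ANKO4 was lowest. Vldlr, the very low-density lipoprotein receptor, was at 438, 360, 398 and 331 CPM in WT and at 182, 172, 165 and 149 CPM in ANKO, a fall of 2.28-fold (log2 -1.19 ± 0.12 SE, edgeR adjusted p = 2.69e-05). These 3 falls kept their call with the muscle covariate, at -1.50 for Sesn2, -0.83 for Asns and -1.30 for Vldlr.

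The mRNA of Atf4 itself was at 154, 199, 213 and 281 CPM in WT and at 142, 145, 140 and 129 CPM in ANKO. The ANKO libraries were tight and the WT libraries spread, WT1 lying just above the highest ANKO library and WT4 far above it. Atf4 was 1.52-fold lower (log2 -0.61 ± 0.16 SE, edgeR adjusted p = 0.00866), and -0.10 ± 0.22 with the muscle covariate, where the call was lost. Eif4ebp1, an inhibitor of cap-dependent translation, fell 1.44-fold from 146 ± 16.7 to 101 ± 15.3 CPM (SD over 4 mice per group; edgeR adjusted p = 0.00614), and Cebpg, a partner of ATF4, 1.25-fold from 128 ± 16.4 to 102 ± 5.27 CPM (edgeR adjusted p = 0.0215). Both lost their call with the muscle covariate, at log2 fold changes of -0.37 for Eif4ebp1 and -0.04 for Cebpg. Cebpg, at -0.33 with all libraries, also lost it at about the same size without ANKO1 (-0.32, edgeR adjusted p = 0.0526) or ANKO3 (-0.33). It lost it at a smaller size without WT3 and WT4 (-0.19), with upper-quartile scaling (-0.23) and with library totals alone (-0.14). Atf5, which can take the place of ATF4 in the mitochondrial stress response, was at 120 to 159 CPM in WT and at 120 to 213 CPM in ANKO, a log2 difference of 0.27 ± 0.18 (standard error) that was not called. Nupr1, a chromatin-binding stress protein, differed by -0.12 ± 0.14. Ddit4, another inhibitor of mTORC1, differed by -0.07 ± 0.40, and its sign turned under several other settings. In WT1 Ddit4 stood at 13.6 CPM against 43.7 to 54.1 CPM in the other WT libraries, the widest spread within a group among the 40 genes.

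**Figure D2:**
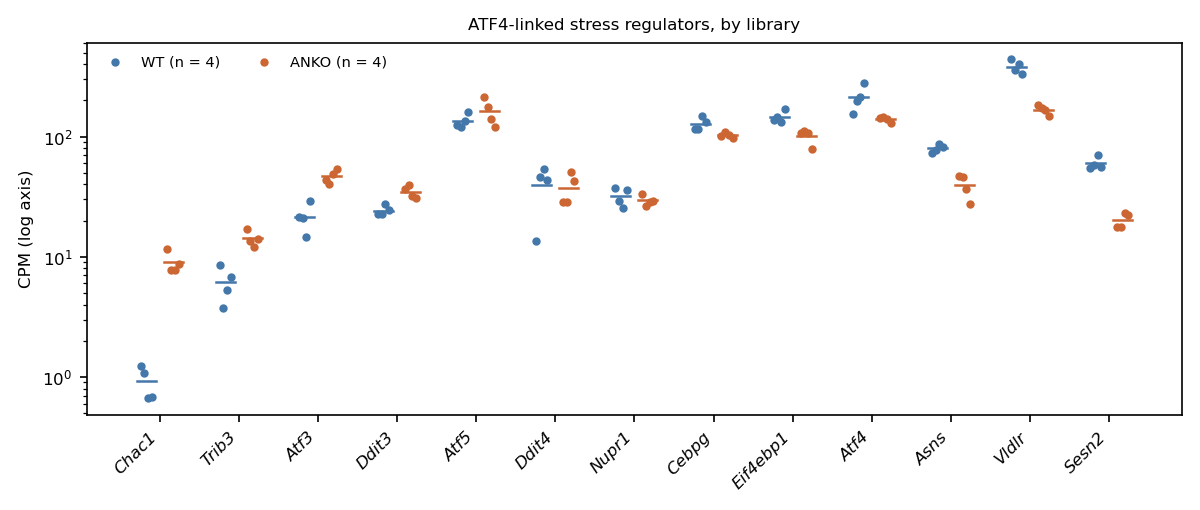
Level of each of the 13 stress regulators and targets in every library, in CPM on a log axis (WT blue, ANKO orange, 4 libraries each, short lines are means), ordered by log2 fold change. The first 4 genes from the left lie wholly above WT in ANKO, from Chac1 at 7.72 to 11.7 CPM against 0.671 to 1.24 CPM, and the last 6 wholly below it.

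The 7 folate enzymes of the list split by compartment. Of the 4 mitochondrial enzymes 3 were higher and 1 was not called, and all 3 cytosolic enzymes were lower. The 3 higher ones lay under 10 CPM in WT, where 46.5% of all tested genes were higher. The lower ones lay above 10 CPM, where lower calls were more frequent, at 38.1% between 10 and 100 CPM and 62.3% from 100 CPM. These bands are cut on the WT level, which also enters the fold change, so the shares are a limited benchmark. Mthfd2 (ENSMUSG00000005667, chromosome 6, 83305691 to 83317606, minus strand, GRCm38), the mitochondrial methylene-tetrahydrofolate dehydrogenase and cyclohydrolase known from embryonic, immune and dividing cells, was at 1.98, 1.59, 1.74 and 1.84 CPM in WT. In ANKO it was at 16.2, 11.9, 10.6 and 14.3 CPM. The groups are far apart and each is tight, and the rise was 7.42-fold (log2 2.89 ± 0.18 SE, edgeR adjusted p = 9.6e-07). Mthfd1l, the mitochondrial formate-releasing ligase, was at 1.19, 1.71, 1.74 and 2.32 CPM in WT and at 5.01, 4.49, 6.15 and 5.83 CPM in ANKO. It rose 3.03-fold (log2 1.60 ± 0.22 SE, edgeR adjusted p = 0.000185). Aldh1l2, which oxidises mitochondrial formyl-tetrahydrofolate and makes NADPH, rose 2.47-fold from 1.32 ± 0.264 to 3.22 ± 0.303 CPM (SD over 4 mice per group; edgeR adjusted p = 0.000394). With the muscle covariate Mthfd2 and Mthfd1l kept their calls, at 3.02 and 2.07 on the log2 scale, and Aldh1l2 did not, at 1.003 ± 0.37. Shmt2, which opens the mitochondrial chain by splitting serine, was at 17.7 to 22.1 CPM in WT and at 15.2 to 18.2 CPM in ANKO. Its log2 difference of -0.24 ± 0.11 was not called.

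Shmt1, the cytosolic counterpart of Shmt2, was at 63.1, 63.9, 61.8 and 60.2 CPM in WT and at 32.2, 33.3, 20.5 and 19.96 CPM in ANKO. It fell 2.33-fold (log2 -1.22 ± 0.17 SE, edgeR adjusted p = 0.00016). The WT libraries were nearly equal, and ANKO1 and ANKO2 lay above ANKO3 and ANKO4. Mthfd1, the trifunctional cytosolic enzyme that interconverts formate-bearing and methylene-bearing folates, fell 1.65-fold from 60.1 ± 3.41 to 36.5 ± 2.95 CPM (SD over 4 mice per group; edgeR adjusted p = 8.7e-05). Aldh1l1, the cytosolic enzyme that burns formyl-tetrahydrofolate, was at 176, 131, 138 and 126 CPM in WT and at 95.9, 75.8, 87.3 and 55.4 CPM in ANKO, a fall of 1.81-fold (log2 -0.86 ± 0.17 SE, edgeR adjusted p = 0.0017). No ANKO library reached a WT library in any of the 3 genes, and all 3 falls kept their call with the muscle covariate, at -1.23, -0.81 and -1.005. Shmt1 shares 184 exonic bases with Smcr8 on the opposite strand, and Aldh1l1 shares 499 with the antisense gene Gm15756, 11.1% of its length.

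Per length, the cytosolic chain remained the larger one in both genotypes. The 3 cytosolic enzymes summed to 60.1 to 73.3 RPKM (CPM per kb) in WT and 27.1 to 41.0 RPKM in ANKO, and the 4 mitochondrial enzymes to 8.85 to 10.9 and 13.1 to 15.5 RPKM. The ratio of the sums, which no scaling between libraries can alter, was 8.005, 6.02, 7.37 and 5.50 in WT1 to WT4 and 2.65, 2.82, 2.68 and 2.001 in ANKO1 to ANKO4. Thus the groups did not overlap in the ratio, and Shmt2, at 7.66 to 9.57 RPKM in WT and 6.57 to 7.89 RPKM in ANKO, made up most of the mitochondrial sum in WT. Mthfd2 stood at 3.09% to 4.06% of the Mthfd1 level in WT and at 34.5% to 54.4% in ANKO. Macrophage and proliferation markers also rose in ANKO without overlap, and their part in the rise of Mthfd2 and Mthfd1l was not tested, since a fit with the macrophage marker level cannot separate it from genotype.

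Of 20 tested one-carbon genes beyond the 7 enzymes, 2 were higher (10%) and 6 lower (30%), against 30.6% and 27.6% of all genes tested. Their median log2 fold change was -0.06, and 2 more genes were too low to test. Mthfd2l, a mitochondrial relative of Mthfd2 that is outside the sums above, was not called (log2 -0.06 ± 0.14). It averaged 2.24 RPKM in WT and 2.14 RPKM in ANKO. Gcsh, the lipoate-bearing protein of the glycine cleavage system, fell 2.33-fold from 120 ± 4.46 to 51.3 ± 10.6 CPM (SD over 4 mice per group; edgeR adjusted p = 5.34e-05). Sfxn1, the mitochondrial serine transporter, fell 1.85-fold from 135 ± 8.16 to 72.7 ± 12.2 CPM, and Sardh, the mitochondrial sarcosine dehydrogenase, fell 1.74-fold. Mthfs, which returns formyl-folate to the cycle, rose 2.32-fold from 1.84 to 4.28 CPM, and the thymidylate synthase gene Tyms 1.36-fold from 5.01 to 6.80 CPM. Gcsh and Sfxn1 kept their call with the muscle covariate, and Sardh, Mthfs and Tyms did not. The log2 fold change of Tyms was 0.45 ± 0.25 with it and 0.44 ± 0.13 without, that of Sardh -0.55 and -0.80, and that of Mthfs 0.44 and 1.21.

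Enzymes of serine and proline synthesis rose in part. Of the 8 enzymes of amino acid metabolism 3 were higher (37.5%), 2 lower (25%) and 3 not called, against 30.6% higher and 27.6% lower over all genes. Psat1 (ENSMUSG00000024640, chromosome 19, 15904678 to 15947337, minus strand, GRCm38), the aminotransferase in the middle of serine synthesis, was at 6.04, 6.33, 3.75 and 4.64 CPM in WT and at 31.6, 25.6, 27.2 and 32.6 CPM in ANKO. All ANKO libraries lay far above WT, by 5.67-fold (log2 2.50 ± 0.18 SE, edgeR adjusted p = 2.25e-06), and the log2 fold change was 1.99 with the muscle covariate. Its neighbours in the pathway were not called: Phgdh, the first enzyme, was at 5.25 to 9.03 CPM in WT and at 6.68 to 12.01 CPM in ANKO (log2 0.43 ± 0.22), and Psph, the last, at 18.1 to 23.1 and 16.7 to 27.5 CPM (0.14 ± 0.17). Per length, Psat1 stood at 30.0% to 46.0% of the Phgdh level in WT libraries and at 133% to 224% in ANKO libraries.

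Both enzymes that lead from glutamate to proline rose. Aldh18a1, the pyrroline-5-carboxylate synthase, was at 3.96, 4.43, 3.30 and 3.94 CPM in WT and at 14.2, 12.4, 14.8 and 18.6 CPM in ANKO, 3.83-fold higher (log2 1.94 ± 0.16 SE, edgeR adjusted p = 6.09e-06). Pycr1, the mitochondrial reductase that closes the proline ring pathway, was at 0.743, 0.932, 0.458 and 0.432 CPM in WT and at 1.72, 3.69, 2.74 and 2.91 CPM in ANKO. It rose 4.28-fold (log2 2.10 ± 0.34 SE, edgeR adjusted p = 0.000481) at 15 to 45 reads per library, and with the muscle covariate it was 1.09 ± 0.52 and not called. Its relative Pycrl was lower by 2.07-fold, from 37.8 ± 0.767 to 18.1 ± 3.44 CPM. The enzymes of proline breakdown fell: Prodh 3.799-fold from 77.3 ± 17.8 to 20.3 ± 1.04 CPM (edgeR adjusted p = 4.68e-06) and Aldh4a1 3.13-fold from 164 ± 18.03 to 52.2 ± 10.9 CPM (edgeR adjusted p = 1.45e-05; SD over 4 mice per group). Fibroblast markers rose in the same libraries, as given above, and their part in these values was not tested.

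The transsulfuration enzymes, which make cysteine from homocysteine, were low and fell further. Cth was at 6.53, 6.06, 5.89 and 6.74 CPM in WT and at 3.64, 1.61, 2.65 and 3.21 CPM in ANKO, 2.22-fold lower (log2 -1.15 ± 0.22 SE, edgeR adjusted p = 0.00132). Cbs was at 2.43, 1.71, 4.39 and 1.78 CPM in WT and at 0.918, 1.84, 0.946 and 0.729 CPM in ANKO, with ANKO2 inside the WT range. Cbs was 2.36-fold lower (edgeR adjusted p = 0.0217) on 5 to 24 reads per ANKO library. Its log2 fold change was -1.24 with all libraries and -0.85 without WT3, where it was no longer called, nor was it without ANKO1, ANKO3 or ANKO4, at -1.12 to -1.18. With the muscle covariate neither gene was called, Cth at -1.07 ± 0.36 (edgeR adjusted p = 0.0557) and Cbs at -0.74 ± 0.68. Pck2, the mitochondrial phosphoenolpyruvate carboxykinase, was at 23.1 to 26.3 CPM in WT and at 26.3 to 31.2 CPM in ANKO, a log2 difference of 0.21 ± 0.09 that was not called. Among 14 tested genes of neighbouring amino acid metabolism, 5 were higher (35.7%) and 6 lower (42.9%), against 30.6% and 27.6% of all genes tested. The transaminases Got2, Gpt2 and Got1 rose 2.62-fold, 2.16-fold and 2.64-fold, from 16.5 to 43.3, from 27.3 to 58.8 and from 27.1 to 71.6 CPM, and their calls held with the muscle covariate.

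**Figure D3:**
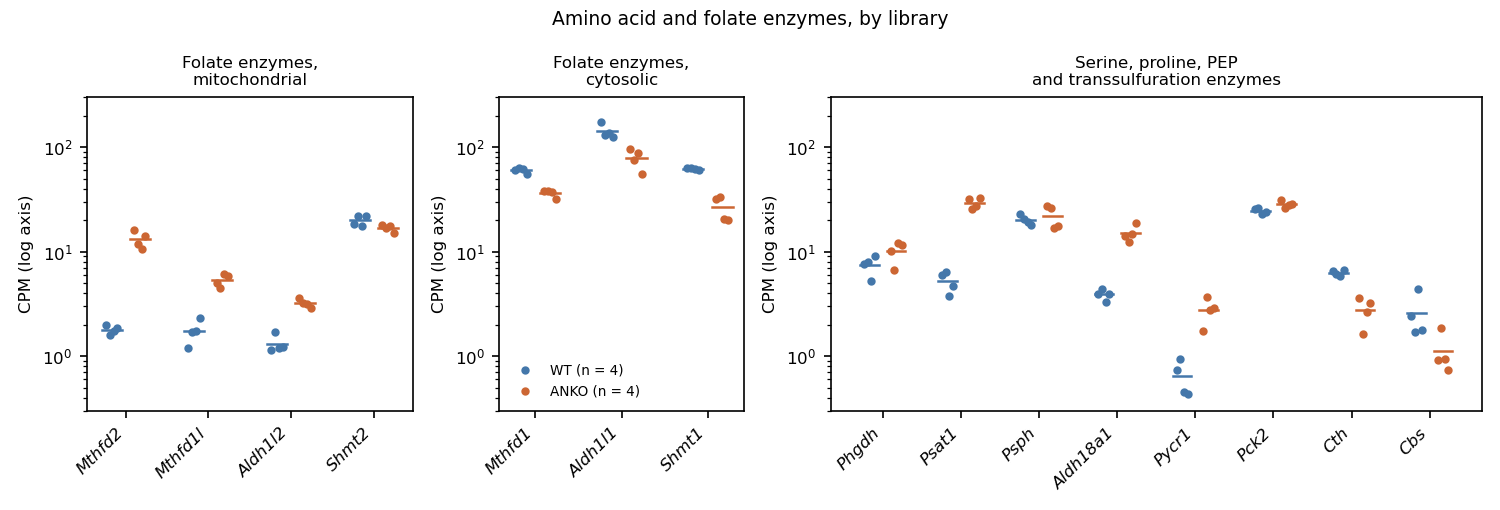
Level of each folate and amino acid enzyme in every library, in CPM on a log axis (WT blue, ANKO orange, 4 libraries each, short lines are means). Mthfd2, Mthfd1l and Aldh1l2 lie above WT in ANKO and Mthfd1, Aldh1l1 and Shmt1 below it, and on the right Psat1, Aldh18a1 and Pycr1 lie above WT with no overlap.

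The cytosolic tRNA synthetases of the list, which load amino acids onto tRNA and which ATF4 is known to raise together, moved little. Of the 12 genes 1 was higher (8.33%), 2 lower (16.7%) and 9 not called, against 30.6% higher and 27.6% lower over all genes tested. All 12 log2 fold changes lay between -0.52 and 0.44. Cars, which charges cysteine, was at 25.8, 24.5, 30.2 and 36.2 CPM in WT and at 41.3, 41.0, 41.3 and 35.1 CPM in ANKO. It rose 1.36-fold (log2 0.44 ± 0.13 SE, edgeR adjusted p = 0.0139), with WT4 above ANKO4. Mars, for methionine, was at 76.8, 80.1, 85.6 and 89.4 CPM in WT and at 61.7, 60.5, 59.8 and 48.4 CPM in ANKO, and was the member of this group without overlap. It fell 1.44-fold (log2 -0.52 ± 0.10 SE, edgeR adjusted p = 0.00123), and -0.35 ± 0.17 with the muscle covariate was not called. Eprs, for glutamate and proline, was at 200 to 271 CPM in WT and at 189 to 205 CPM in ANKO, and its fall of 1.24-fold lay at the threshold (edgeR adjusted p = 0.0496). It lost its call with RLE size factors (edgeR adjusted p = 0.0524) and without any 1 of the libraries other than WT1.

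The 9 synthetases that were not called are not shown to be equal. Gars came nearest, at 137 to 172 CPM in WT and 84.9 to 143 CPM in ANKO (log2 -0.40 ± 0.16, edgeR adjusted p = 0.0577), and it was called lower without WT1, ANKO1 or ANKO2 and with DESeq2 (adjusted p = 0.0384). Tars differed by -0.22 ± 0.10, Aars by -0.18 ± 0.13, Iars by -0.15 ± 0.13, Lars by -0.12 ± 0.10, Nars by -0.12 ± 0.12 and Sars by -0.11 ± 0.13. Wars, which interferon-γ is known to induce, differed by 0.11 ± 0.13, and Yars by 0.06 ± 0.11. With library totals alone the log2 fold changes of Aars, Iars, Lars, Nars and Sars turned positive, between 0.00191 and 0.07, and Wars was called higher at 0.29 (edgeR adjusted p = 0.0352). Among the WT libraries 11 of the 12 synthetases were lower in WT1 and WT2 than in both WT3 and WT4, an order found in 29.3% of all genes tested. WT1 and WT2 are the WT libraries with more muscle RNA, and also those with the lower brown adipocyte marker sums. Among the ANKO libraries 8 of the 12 were lowest in ANKO4, against 36.1% of all genes.

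The 12 other cytosolic synthetase and scaffold genes had 2 higher (16.7%) and 7 lower (58.3%), with a median log2 fold change of -0.28. Vars, for valine, rose 1.35-fold from 49.2 ± 2.97 to 66.5 ± 6.61 CPM (SD over 4 mice per group; edgeR adjusted p = 0.00279), and the scaffold gene Aimp2 1.47-fold from 5.09 to 7.41 CPM. Tarsl2 fell 1.79-fold, Hars 1.40-fold and Qars 1.28-fold. Tarsl2 kept its call with the muscle covariate, and Vars, Aimp2, Hars and Qars did not. The log2 fold change of Aimp2 was 0.59 with it and 0.55 without, that of Vars 0.34 and 0.43, that of Qars -0.22 and -0.36, and that of Hars -0.20 and -0.48. The mitochondrial synthetases are a nuclear set that charges tRNA for the proteins of the mitochondrial genome. Of the 17, 15 were lower and 0 higher (edgeR, and also 0 higher at an unadjusted p under 0.05), with a median of -0.77. Over all genes tested 27.6% were lower and 30.6% higher. Most of these synthetases lay between 10 and 100 CPM in WT, where 38.1% of tested genes were lower. Nars2 fell 1.70-fold from 28.9 ± 0.854 to 17.01 ± 1.11 CPM (edgeR adjusted p = 4.99e-05), Rars2 1.81-fold and Hars2 1.70-fold. With the muscle covariate 8 of the 17 were called lower and the median was -0.75. The difference between the cytosolic and the mitochondrial set was not tested.

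**Figure D4:**
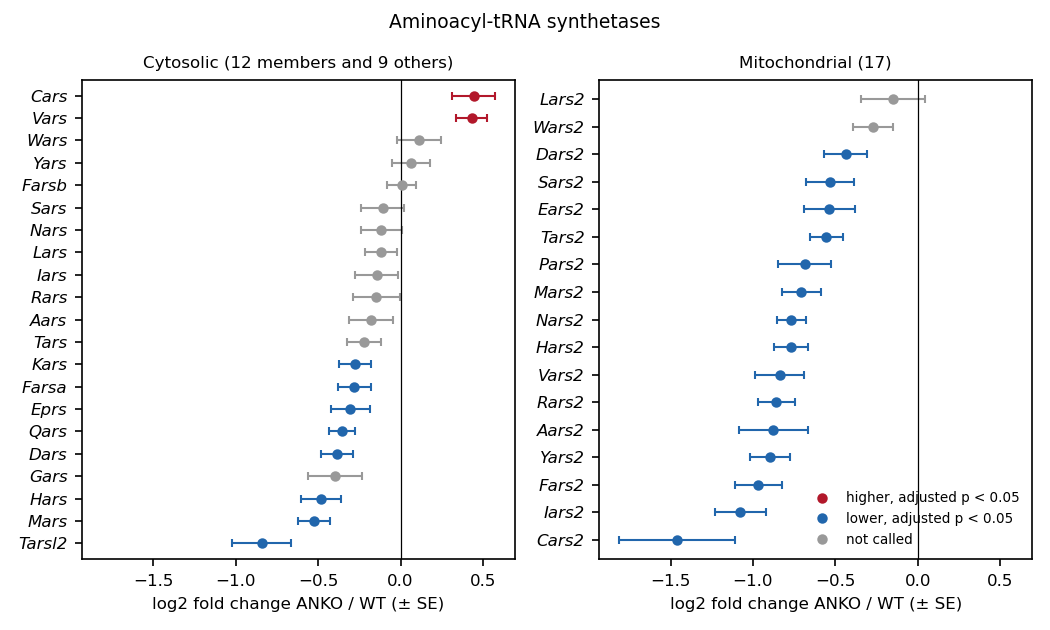
Log2 fold change between ANKO and WT (points, edgeR) with its standard error (bars) for cytosolic synthetases, 12 of them members of the list and 9 others, and for 17 mitochondrial ones. The cytosolic genes run from Cars at 0.44 to Tarsl2 at -0.84, most of them left of the zero line, and the mitochondrial genes all lie to its left.

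Upstream of ATF4, 1 of 15 genes of eIF2 signalling was higher (6.67%) and 6 lower (40%), against 30.6% and 27.6% of all genes tested. The median log2 fold change was -0.22. The higher one was Eif2ak2, the interferon-induced eIF2α kinase PKR that senses double-stranded RNA, at 36.4, 31.1, 24.0 and 21.4 CPM in WT and at 50.05, 52.9, 45.2 and 51.9 CPM in ANKO (1.77-fold, edgeR adjusted p = 0.00128). The kinases Eif2ak1 (HRI), Eif2ak3 (PERK) and Eif2ak4 (GCN2) were not called, with log2 differences of -0.22 ± 0.11, -0.08 ± 0.08 and 0.17 ± 0.13. Ppp1r15b, the constitutive subunit that directs a phosphatase to eIF2α, was at 452, 464, 503 and 554 CPM in WT and at 164, 188, 183 and 169 CPM in ANKO, 2.80-fold lower (edgeR adjusted p = 4.06e-06). Its stress-induced relative Ppp1r15a, itself an ATF4 target, averaged 27.2 CPM in WT against 21.0 CPM in ANKO and was not called. Subunits of the exchange factor eIF2B were lower in 4 of 5 cases, among them Eif2b4 by 1.70-fold and Eif2b1 by 1.43-fold. With the muscle covariate Ppp1r15b kept its call, at -1.26, and was the 1 gene of the 15 called, while Eif2ak2 stood at 0.27 (edgeR adjusted p = 0.351). Of 10 genes for ATF4 partners and secreted factors 5 were higher and 1 lower, against 30.6% and 27.6% of all genes tested. Downstream, the stress hormone gene Gdf15 went from 0.495, 0.233, 2.14 and 1.02 CPM in WT to 19.6, 17.98, 23.0 and 35.1 CPM in ANKO (23.2-fold, edgeR adjusted p = 0.000133), and the call held with the muscle covariate. Fgf21 rose 6.60-fold from 0.378 to 2.57 CPM (edgeR adjusted p = 0.0016). It had 2 to 32 reads per WT library, and its call also held with the muscle covariate. Batf2, an interferon-induced leucine zipper gene, rose 5.13-fold from 0.739 to 3.68 CPM, and Cebpb, a partner of ATF4, fell 1.75-fold from 270 ± 34.4 to 155 ± 32.3 CPM. Neither kept its call with the muscle covariate, where the log2 fold change of Batf2 was 1.42 against 2.36 without it and that of Cebpb -0.46 against -0.80.

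Across the 40 genes, the direction went with the level in WT, as it did across the genome. The WT level that sets the bands is also the baseline of the fold change. Part of this link can therefore come from the banding itself, and how much was not tested. Of the 11 genes under 10 CPM in WT 8 were higher and 2 lower, where 46.5% and 9.33% of all tested genes of that level were. Between 10 and 100 CPM 3 of 18 were higher and 5 lower, against 19.7% and 38.1%. Of the 11 genes at 100 CPM or more 0 were higher (edgeR; 0 at an unadjusted p under 0.05) and 6 lower, against 6.61% and 62.3%. Per length, the levels in WT ran from 0.163 RPKM for Pycr1 to 148 RPKM for Eif4ebp1 (SD 17.01, n = 4). Atf4 was second at 123 ± 30.3 RPKM, and its SD range overlaps that of Eif4ebp1. Next came Atf5 and Gars, at 67.6 ± 8.75 and 65.6 ± 6.66 RPKM, which do not differ beyond their spread. In ANKO Pycr1, at 0.703 RPKM, stood above Cbs and Aldh1l2, at 0.332 and 0.430 RPKM.

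**Figure D5:**
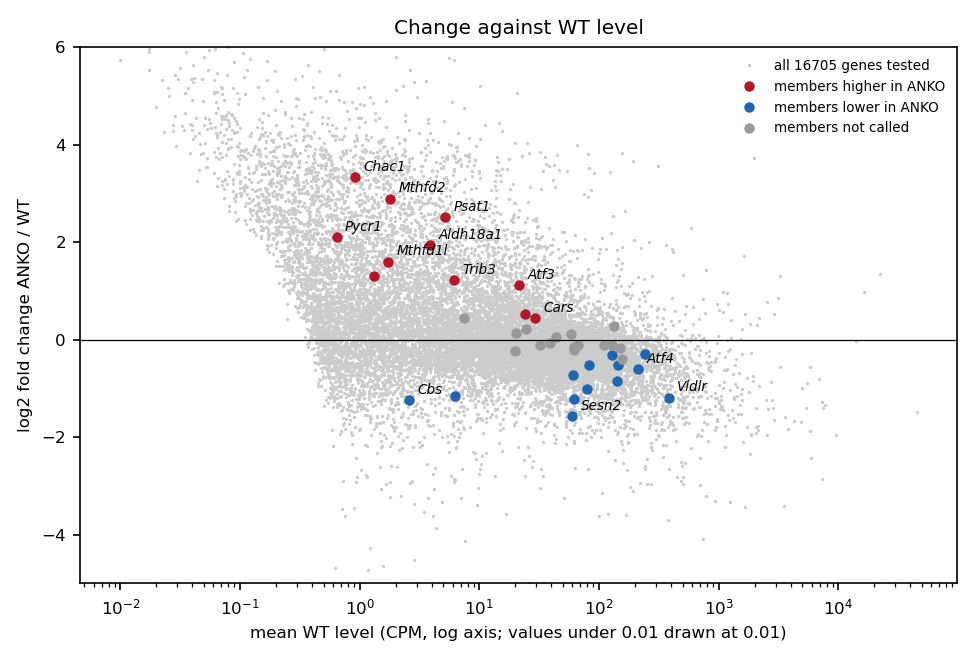
Log2 fold change between ANKO and WT against the mean WT level in CPM (log axis) for all 16705 genes tested (grey, 46 of them outside the drawn range) and for the 40 genes of the list (coloured by call). The higher members sit mostly under 10 CPM and the lower members mostly above it, within the cloud of all genes.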

How the data were processed

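Flash-frozen brown fat gave total RNA from which ribosomal RNA was removed (Ribo-Zero Gold), per the labels. The submitters' processing notes name STAR 2.0.4b, featureCounts 1.45 and GRCm38. Which annotation release and strand option were used, and how reads with several matches were treated, the sources used here do not give. For each of 41388 Ensembl genes the authors deposited a whole-number count, a CPM (that count scaled to a library of 1000000) and an RPKM (that CPM per kb of gene length), and both relations held to within 1e-09. Only the deposited counts were tested, and printed CPM and RPKM were recomputed from them with TMM-adjusted sizes. GENCODE M21 named 40340 of the genes. The 355 rRNA rows, left out, took 2.83% to 3.53% of WT and 0.801% to 1.13% of ANKO counts.

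The 4 WT and 4 ANKO mice, grouped by title, were compared with edgeR 4.0.16 in R 4.3.3 (filterByExpr, TMM, robust quasi-likelihood test). The Benjamini-Hochberg adjustment covered all 16705 tested genes, and standard errors were derived from the F statistic. No libraries agreed within sampling noise (lowest chi-square per degree of freedom 7.16). The members and gene lists were chosen with earlier results of these data known. All members may be named, with up to 3 called genes per direction of each further list, by smallest p. Ppp1r15a, Eif2ak1, Eif2ak3, Eif2ak4, Mthfd2l and the single brown adipocyte markers were named after their values were seen. Alternatives were other scalings and filters, DESeq2 1.42.0, limma-voom (limma 3.58.1), a replicate block, libraries left out, other gene sets, covariates and thinning. Read copies from PCR are not independent molecules, so depth limits cover counting error only. Figures were drawn with matplotlib 3.10.9.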

Additional observations from a re-analysis of the deposited data

Results flagged for a closer look

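In 82 groups of 4 libraries checked (each member and Nampt in each genotype), 6 had a library far from the other 3, and chance flags about 5% of such groups. In ANKO4, the shallowest library, 4 genes were low: Eif4ebp1 at 78.2 CPM against 107 to 111 in the other ANKO libraries, Mthfd1 at 32.1 CPM against 37.5 to 38.1, Cars at 35.1 CPM against 41.0 to 41.3, and Mars at 48.4 CPM against 59.8 to 61.7. ANKO4 was the lowest ANKO library in 21 of the 40 genes (52.5%), against 36.1% of all genes tested. In WT2 Aldh1l2 was high, at 1.71 CPM against 1.14 to 1.23. In WT3 Nampt was high, at 571 CPM against 484 to 495.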

How the results depend on the processing

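All 11 higher members kept their call under each alternative run in edgeR or limma-voom other than the covariates, and 10 to 13 of the 13 lower ones did. The count of lower synthetases (2) was 1 with RLE factors, upper-quartile scaling, library totals alone, a minimum of 1 CPM in 4 libraries, the replicate block, and without WT3 and WT4, and it ranged from 1 to 4 with 1 library left out. Higher synthetases were 2 instead of 1 with library totals alone. Lower amino acid enzymes (2) were 1 after thinning to the lowest total, where Cbs was not tested. They were also 1 without WT3 and WT4, where Cbs lost its call, and 1 to 2 with 1 library left out. With the muscle covariate, whose level had r = 0.839 with genotype, 6 members were lower instead of 13, among them 3 stress regulators instead of 6, 0 amino acid enzymes and 0 synthetases. The median over the 40 genes turned positive with library totals alone (0.0648), with the muscle covariate (0.13) and without WT3 and WT4 (0.0269). Apart from Cbs after thinning, the causes of these changes were not tested.

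Of single genes, Eprs was the 1 called member whose sign turned, to 0.0393 with the muscle covariate. The other turns were in genes not called. With library totals alone Ddit4 was 0.14, Nupr1 0.0648, Aars 0.00191, Iars 0.0475, Lars 0.0581, Nars 0.0648 and Sars 0.0709. Under the muscle covariate Ddit4 was 0.31, Psph -0.0123, Aars 0.20, Iars 0.28, Nars 0.27, Sars 0.27 and Tars 0.00874. Without WT3 and WT4 Ddit4 was 0.32, Iars 0.0722, Nars 0.0582 and Sars 0.0369. After thinning Ddit4 was 0.0322 and Lars 0.00238. Ddit4 was also 0.0309 with upper-quartile scaling, 0.0177 with limma-voom and 0.0607 with the replicate block. With 1 library left out it ranged from -0.37 (without WT1) to 0.11, and Yars from -0.0325 (without WT1) to 0.13.

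Same-numbered WT and ANKO libraries deviated with r = 0.11, -0.01, 0.07 and -0.05, so the numbers are not shown to pair mice, and not every library correlated best with its own number. The replicate block left 11 members higher and 12 lower and gave 4961 higher and 4278 lower genes in all. A planned fit with the macrophage marker level gave no usable value, since that level had r = 0.996 with genotype, and no gene was called. The WT libraries were deeper than the ANKO libraries, by 3.44 times in the median, which limits genes near the 3-count level of ANKO4.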
